A study of Mus musculus with 10 samples.

Results

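Otx1, Otx2, Pitx1, Pitx3 and Gsc are 5 homeobox genes whose surroundings were examined in 6 lists of Polycomb-group (PcG) ChIP-seq peaks from mouse embryonic stem cells (ESCs) and neural stem cells (NSCs). They were taken from a fixed list of names, out of 22350 protein-coding genes, and that list was chosen on measured values, the NSC peaks around Otx2 that have no counterpart in ESCs. All counts and peak positions of these 5 genes, Otx2 above all, are therefore descriptions and no test was run on them. Every gene was given a window, the annotated gene body plus 10 kb on either side, and a peak belonged to a gene when it touched that window.

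The 10 samples were J1 mouse cells with no genetic change or treatment named: ESCs grown with serum and leukemia inhibitory factor, and NSCs derived from J1 ESCs in culture and kept in EGF and FGF. ChIP for Ring1b, Cbx2, Ezh2 and H3K27me3 was made in ESCs, ChIP for Ring1b and H3K27me3 in NSCs, and the other 4 samples were input DNA, with Ring1b having inputs of its own. There was 1 library per cell type and target, so no replicate error can be given, no p-value was computed, and a difference between ESCs and NSCs cannot be told apart from a difference between 2 libraries or their inputs. The lists hold peak starts and ends on mouse build mm9 without height, score or depth, so the cell labels could not be checked against marker expression, and a missing peak says only that no window passed the authors' threshold in that library.

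Members of the Otx, Pitx and Gsc families encode paired-type homeodomain proteins that carry a lysine in the DNA-recognition helix of the homeodomain, which gives them a preference for TAATCC-like sites. Otx2 is required for the head organizer and for fore- and midbrain, and Otx1 acts with it in the brain and in sense organs. Pitx1 sets hindlimb identity and pituitary development, Pitx3 acts in the lens and in midbrain dopamine neurons, and Gsc marks the gastrula organizer. PcG proteins keep such developmental genes silent: Ring1b and Cbx2 belong to Polycomb repressive complex 1 (PRC1), and Ezh2 is the enzyme of complex 2 (PRC2) that places H3K27me3.

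The lists differed in length and peak width, which limits how they can be set side by side. ESC Ring1b had 2335 peaks, ESC Cbx2 1033, ESC Ezh2 1173, ESC H3K27me3 2192, NSC Ring1b 1389 and NSC H3K27me3 1647. Median widths ran from 1400 to 2200 bp, and the narrowest peak of every list was 1000 bp wide.

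All 5 genes carried PcG peaks in ESCs, and 4 of them still did in NSCs. The start site, taken as the 5′ end of the gene record, lay inside an ESC Ring1b peak at 5 of 5 genes, where the share over all protein-coding genes was 7.03%. ESC Cbx2 peaks held the start site of 4 of 5, all but Pitx3, against 1.15% of all genes. ESC Ezh2 and ESC H3K27me3 peaks each held 3 of 5 start sites, those of Otx1, Pitx1 and Gsc, against 2.56% and 4.31% of all genes. These 3 genes had their start site inside peaks of all 4 ESC lists, which 0.752% of all genes had. With the start of any annotated transcript in place of the gene record's end, Ezh2 and H3K27me3 each reached 5 of 5, so those counts depend on which start of Otx2 and Pitx3 is used.

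In NSCs the start site stayed inside a Ring1b peak at 3 of 5 genes, Otx1, Otx2 and Pitx1, against 1.74% of all genes. NSC H3K27me3 peaks held 2 of 5 start sites, those of Otx2 and Gsc, against 1.77% of all genes. With a start within 1 kb of a peak taken as inside, NSC Ring1b reached 4 of 5, with Gsc added. With the start of any annotated transcript, NSC H3K27me3 reached 3 of 5, with Pitx1 added. A nearer background is the 1571 genes with their start site in an ESC Ring1b peak, a group to which all 5 belong. Of those, 16.7% had the start site in an NSC Ring1b peak and 19.8% in an NSC H3K27me3 peak. Otx2 was the gene among the 5 with its start site under both NSC lists, while Pitx3 was under neither.

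**Figure D1:**
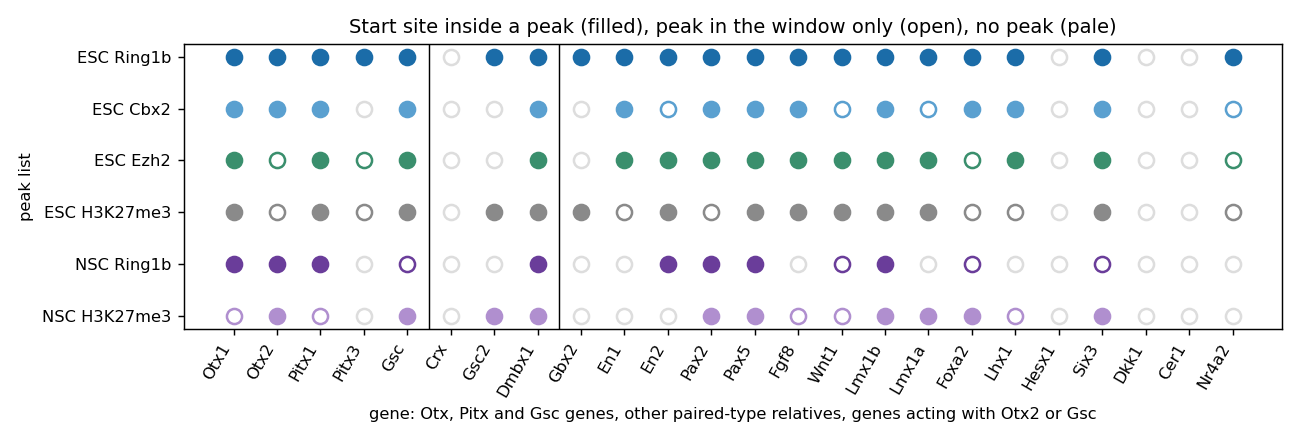
Each column is a gene and each row a peak list; a filled circle marks a start site inside a peak, an open coloured circle a peak elsewhere in the window, and a pale circle no peak. ESC Ring1b is filled at all 5 genes left of the first line, and the 2 NSC rows are empty at Pitx3.

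Otx2 lies on the reverse strand at chr14:49277354-49287319 (ENSMUSG00000021848.9), with 8 annotated transcripts and 7 distinct starts. The 200 bases before the start site of the gene record, shown because this start is under PRC1 but under neither PRC2 list in ESCs, are given below on the gene's strand in mm9 with each CG in capitals (chr14:49287320-49287519, 6 CG).
Otx2 upstream: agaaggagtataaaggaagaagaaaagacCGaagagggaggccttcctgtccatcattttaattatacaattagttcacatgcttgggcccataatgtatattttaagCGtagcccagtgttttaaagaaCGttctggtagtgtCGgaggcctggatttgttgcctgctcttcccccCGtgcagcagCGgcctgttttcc
The 1 kb around this start had 43.0% GC and an observed to expected CpG ratio of 0.522, where the median protein-coding gene had 54.8% and 0.549. Otx2 had the lowest GC percent and the lowest CpG ratio at its start among the 5.

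In ESCs the PRC1 peaks of Otx2 covered more bases than the Ezh2 and H3K27me3 peaks, in lists that differ in peak width. The Ring1b peak at chr14:49280801-49295000 was 14200 bp wide, as wide as or wider than 97.6% of its list, and held all 7 starts. Cbx2 had 2 peaks of 9400 and 3000 bp, whose 12400 bp all lay under the Ring1b peak. Ezh2 peaks covered 4600 bp in 2 pieces of 2800 and 1800 bp, as wide as or wider than 77.1% and 54.1% of their list. The wider Ezh2 peak held 2 of the 7 starts. H3K27me3 peaks covered 2200 bp in 2 pieces of 1200 and 1000 bp, near the narrow end of that list.

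The Ezh2 and H3K27me3 peaks of Otx2 shared 0 bases. The wider Ezh2 peak lay 719 to 3518 bp downstream of the start site, and the H3K27me3 peaks lay 5519 to 6718 bp downstream and 1282 to 2281 bp upstream of it. Otx2 was the only 1 of the 5 genes with no base shared by the enzyme's peaks and the mark's peaks. Over the 1081 protein-coding genes with both kinds of peak in the window, 4.72% had none shared.

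In NSCs the cover of Otx2 was wider for both targets. Ring1b covered 14200 bp of the window in ESCs and 23519 bp in NSCs, a ratio of 1.66, or 47.4% and 78.5% of the window. H3K27me3 covered 2200 bp in ESCs and 17919 bp in NSCs, a ratio of 8.14, or 7.34% and 59.8% of the window. This H3K27me3 ratio rests on 2 narrow ESC peaks, and with peaks under 2 kb left out, ESC H3K27me3 cover of the Otx2 window was 0.0% and no ratio can be given. The ESC Ring1b cover was almost entirely kept, 13800 of its 14200 bp, and so was all of the ESC H3K27me3 cover. Among the 2229 protein-coding genes with an ESC H3K27me3 peak in the window, 5 had a ratio at least as high as Otx2, itself included. For Ring1b 48 of 2572 had. Otx2 was picked for NSC peaks that enter these ratios, so nothing is read from its ranks.

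**Figure D2:**
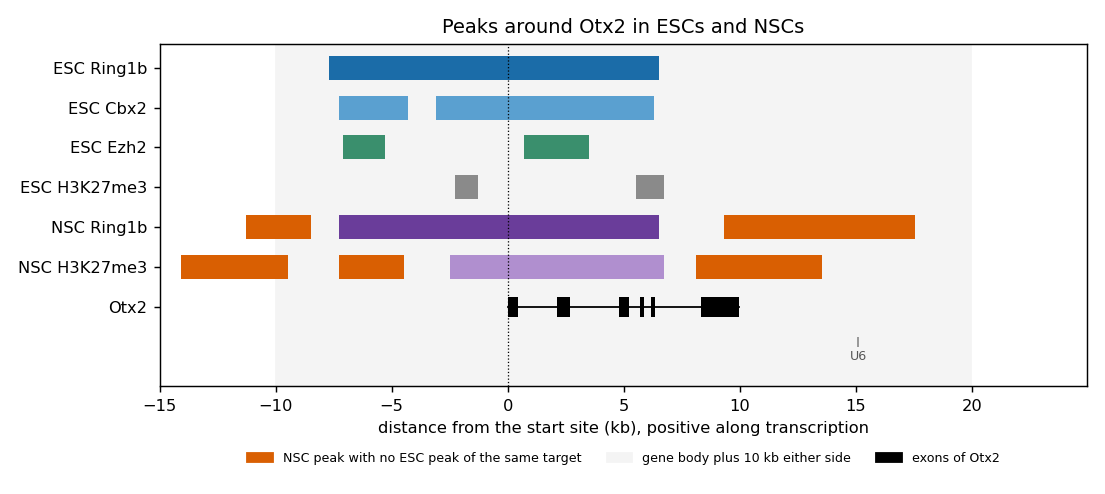
Peaks of the 6 lists around Otx2, drawn to scale by distance from the start site in kb, positive along transcription, with exons in black and the window shaded. Orange peaks are NSC peaks with no ESC peak of the same target: 2 for Ring1b and 3 for H3K27me3. They lie on both sides of the ESC Ring1b peak, except the H3K27me3 peak of 2800 bp, which lies inside it.

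Ring1b widened through separate peaks on both flanks, and H3K27me3 through such peaks and through a wider central peak. Downstream of the gene, an NSC Ring1b peak of 8200 bp (chr14:49269801-49278000) began 2800 bp past the end of the ESC Ring1b peak and touched the last exon. Upstream, an NSC Ring1b peak of 2800 bp (chr14:49295801-49298600) lay 800 bp beyond that ESC peak. Neither touched a peak of any ESC list. A U6 small nuclear RNA gene, U6, lies inside the downstream peak and was the only other annotated gene in the window.

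NSC H3K27me3 had 3 such peaks at Otx2. The downstream peak (chr14:49273801-49279200) was 5400 bp wide and covered the whole last exon, so that H3K27me3 peaks in NSCs covered all of the coding bases, where Ring1b peaks covered 30.6% in both cell types. An upstream peak of 2800 bp (chr14:49291801-49294600) had no ESC H3K27me3 peak but lay wholly under the ESC Ring1b and Cbx2 peaks, and it held all 1800 bp of an ESC Ezh2 peak, bases where ESCs had the enzyme and PRC1 without a called mark. The farthest upstream peak (chr14:49296801-49301400) was 4600 bp wide and ran past the window's edge.

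The start site itself also gained H3K27me3 cover, through an NSC peak of 9200 bp (chr14:49280601-49289800) that joined both ESC H3K27me3 peaks and held all 7 starts. In NSCs, 16519 bp of the Otx2 window lay under both Ring1b and H3K27me3, which was 70.2% of the Ring1b cover and 92.2% of the H3K27me3 cover. In ESCs the shared length was 2000 bp, 14.1% of the Ring1b cover. The mark thus lay over a small share of the Ring1b domain of Otx2 in ESCs and over most of it in NSCs.

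How many of these flanking peaks count as absent in ESCs depended on the gap allowed between peaks. When peaks of a list within 3 kb of each other were merged, 0 NSC Ring1b peaks and 1 NSC H3K27me3 peak remained absent in ESCs in all 5 windows together, the latter at Pitx1. When an ESC peak within 1 kb counted as present, 1 NSC Ring1b peak remained, the downstream peak of Otx2.

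Sequences from the middle of 2 NSC peaks absent in ESCs are shown to set the CG content of the added regions beside that of the start site. They are 200 bases each, on the reverse strand of mm9, with each CG in capitals: the downstream Ring1b peak (chr14:49273801-49274000, 6 CG) and the upstream H3K27me3 peak that overlapped ESC Ezh2, whose shown centre lay wholly under the Ezh2 peak (chr14:49293101-49293300, 7 CG). The centres not shown held fewer: 1 CG in the upstream Ring1b peak, and 3 CG each in the downstream and the farthest upstream H3K27me3 peak.
Otx2 downstream Ring1b: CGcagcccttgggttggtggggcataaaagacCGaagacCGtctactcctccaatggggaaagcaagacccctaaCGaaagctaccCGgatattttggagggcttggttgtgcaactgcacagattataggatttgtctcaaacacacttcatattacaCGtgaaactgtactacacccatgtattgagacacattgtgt
Otx2 upstream H3K27me3: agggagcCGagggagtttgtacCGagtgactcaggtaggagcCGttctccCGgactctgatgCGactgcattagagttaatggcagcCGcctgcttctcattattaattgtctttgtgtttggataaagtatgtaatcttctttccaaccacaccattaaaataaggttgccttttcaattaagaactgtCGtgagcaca
Over whole peaks, the observed to expected CpG ratio was 0.398 in the downstream and 0.301 in the upstream Ring1b peak. Across the list, NSC Ring1b peaks absent in ESCs had a median of 0.199 and those overlapping an ESC peak 0.644, so both Otx2 peaks lay between these medians. The 3 H3K27me3 peaks had ratios of 0.399, 0.567 and 0.228 in order along the chromosome, against medians of 0.185 for absent and 0.606 for overlapping peaks. The value of 0.567 belongs to the peak that partly overlapped ESC Ezh2.

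Otx1, the nearest relative of Otx2, had the largest covered share of the window of the 5 genes in each of the 4 ESC lists and lost part of it in NSCs. It lies on the reverse strand at chr11:21894767-21902900 (ENSMUSG00000005917.8), with 4 starts. The CpG ratio of the 1 kb around its start was 0.779. The 3′ end of Ehbp1 lies in the window, and its own start site was in no peak.

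Every base of the Otx1 gene body was under peaks of all 4 ESC lists. ESC peaks covered 14800 bp of the window for Ring1b, 14400 bp for Cbx2, 12000 bp for Ezh2 and 12000 bp for H3K27me3, and 10400 bp lay under all 4. The Ring1b, Cbx2, Ezh2 and widest H3K27me3 peaks were each as wide as or wider than 97.7% or more of their lists. This overlap of mark and enzyme, with 10600 bp shared between Ezh2 and H3K27me3, set Otx1 apart from Otx2.

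In NSCs the Ring1b cover of Otx1 was split in 2 and reached farther downstream. Ring1b covered 13800 bp, a ratio of 0.932 to ESCs, but 10000 bp were shared, 4800 bp were in ESCs alone and 3800 bp in NSCs alone. Its start site stayed under a Ring1b peak of 2200 bp (chr11:21901401-21903600), and an 11600 bp peak (chr11:21887401-21899000) ran from the gene's 3′ part to beyond its end. H3K27me3 covered 7600 bp (chr11:21891001-21898600) against 12000 bp, a ratio of 0.633, with 6000 bp shared, and left the start site without cover. All NSC H3K27me3 cover of Otx1 lay under NSC Ring1b, and no NSC peak was absent in ESCs.

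Pitx1 kept most of its H3K27me3 cover and lost Ring1b cover at its edges and in between. It lies on the reverse strand at chr13:55926415-55937553 (ENSMUSG00000021506.6), with 2 starts and no other annotated gene in the window. The 200 bases before its start (chr13:55937554-55937753, gene strand, mm9, CG in capitals, 20 CG) are shown as a stretch rich in CG and as a start at which Ring1b remained and H3K27me3 did not.
Pitx1 upstream: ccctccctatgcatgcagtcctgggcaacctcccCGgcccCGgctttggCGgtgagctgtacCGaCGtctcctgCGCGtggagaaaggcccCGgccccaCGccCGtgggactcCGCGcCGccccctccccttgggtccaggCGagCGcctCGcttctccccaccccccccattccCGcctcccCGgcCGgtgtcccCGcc
The 1 kb around this start had 65.6% GC and a CpG ratio of 0.634.

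In ESCs a Ring1b peak of 13600 bp spanned the whole Pitx1 gene. Cbx2, Ezh2 and H3K27me3 each had a pair of peaks within it, a narrow peak of 2000 to 2400 bp at the start site and a wide peak of 7600 to 8000 bp over the 3′ part. Together 8200 bp lay under all 4 lists. The same arrangement was found for NSC Ring1b, with peaks of 1800 and 6800 bp.

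Ring1b cover of the Pitx1 window was 13600 bp in ESCs and 8600 bp in NSCs, a ratio of 0.632, and every NSC base was already covered in ESCs. The NSC Ring1b peak at the start (chr13:55935801-55937600) reached 47 bp past it. H3K27me3 cover was 9800 bp in ESCs and 9600 bp in NSCs, a ratio of 0.980 with 7800 bp shared. The narrow H3K27me3 peak at the start was lost, and a peak of 1200 bp appeared 1648 to 2847 bp upstream (chr13:55939201-55940400), 800 bp from the nearest ESC H3K27me3 peak and directly beyond the end of the ESC Ring1b peak. This small peak was the only one at Pitx1 absent in ESCs, and it no longer counted when an ESC peak within 1 kb was taken as present or when peaks under 2 kb were left out. The other annotated start of Pitx1 lay inside an NSC H3K27me3 peak of 8400 bp, so the loss holds for the start of the gene record.

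Pitx3 had the least ESC cover of the 5 genes for Ring1b, Cbx2 and Ezh2, though not for H3K27me3, where Otx2 had less, and it had no cover in NSCs. It lies on the reverse strand at chr19:46210175-46222865 (ENSMUSG00000025229.9), with 3 starts. The 200 bases before its start (chr19:46222866-46223065, gene strand, mm9, CG in capitals, 14 CG) are shown because this is the start of the 5 that lost its only PcG peak, ESC Ring1b.
Pitx3 upstream: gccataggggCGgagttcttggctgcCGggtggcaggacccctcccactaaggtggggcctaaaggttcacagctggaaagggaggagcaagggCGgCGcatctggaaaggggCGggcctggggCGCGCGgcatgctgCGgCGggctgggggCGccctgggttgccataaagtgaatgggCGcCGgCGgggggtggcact
The 1 kb around it had 64.1% GC and a CpG ratio of 0.598, where Pitx1 had 65.6% and 0.634.

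ESC Ring1b peaks of Pitx3 were 2800 bp wide at the start site (chr19:46221601-46224400) and 2400 bp wide over the last exons (chr19:46210001-46212400). Ezh2 had a peak of 2000 bp and H3K27me3 one of 2200 bp at the last exons. At the start side H3K27me3 had a peak of 1200 bp that lay 465 to 1664 bp downstream of the start site, without Ezh2. Cbx2 had no peak in the window. The genes Elovl3 and Gbf1 reach into the window, and their start sites were in no peak of any list.

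Neither NSC list had a peak in the Pitx3 window, against 5200 bp of Ring1b and 3400 bp of H3K27me3 cover in ESCs. The nearest NSC peak was 158136 bp beyond the window, so the absence was not a matter of the window's edge. Loss of every ESC peak was common over the genome, and Pitx3 was 1 of 5 here for each target. Of 2572 genes with an ESC Ring1b peak in the window, 79.5% kept none in NSCs, and of 2229 with an ESC H3K27me3 peak, 73.2% kept none.

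Gsc, a gene of 2119 bp, kept H3K27me3 at its start site, while its NSC Ring1b peak lay upstream of that site. It lies on the reverse strand at chr12:105709419-105711537 (ENSMUSG00000021095.3), with 1 annotated start. The 200 bases before it (chr12:105711538-105711737, gene strand, mm9, CG in capitals, 11 CG) are shown as the start that kept the mark but lay outside the NSC Ring1b peak.
Gsc upstream: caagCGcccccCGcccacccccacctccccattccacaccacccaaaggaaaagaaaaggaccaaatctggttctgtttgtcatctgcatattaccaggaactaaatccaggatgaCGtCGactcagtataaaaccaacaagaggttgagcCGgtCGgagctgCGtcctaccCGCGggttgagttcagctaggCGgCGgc
With a CpG ratio of 0.927 in the 1 kb around its start, Gsc was the highest of the 5 genes, at or above 93.9% of all protein-coding genes.

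In ESCs the whole Gsc gene lay under peaks of all 4 lists. The Ring1b peak was 7600 bp wide, the H3K27me3 peak 5200 bp, and the Cbx2 and Ezh2 peaks had the same ends and 4200 bp each, all of it under the other 2. In NSCs Ring1b cover was 1800 bp, a ratio of 0.237, in a peak (chr12:105712201-105714000) that ended 664 bp upstream of the start site. H3K27me3 cover was 4400 bp, a ratio of 0.846 with 3600 bp shared, in a peak (chr12:105710201-105714600) that held the start site and all of the NSC Ring1b peak. The neighbour Gm10000, which starts 1161 bp upstream of Gsc on the other strand, had its start site in a peak of all 6 lists, so the NSC Ring1b peak in this window lay over the start of that gene. With peaks under 2 kb left out, Gsc joined Pitx3 as a gene that kept no Ring1b. When a start within 1 kb of a peak was taken as inside it, the Gsc start counted as under NSC Ring1b.

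**Figure D3:**
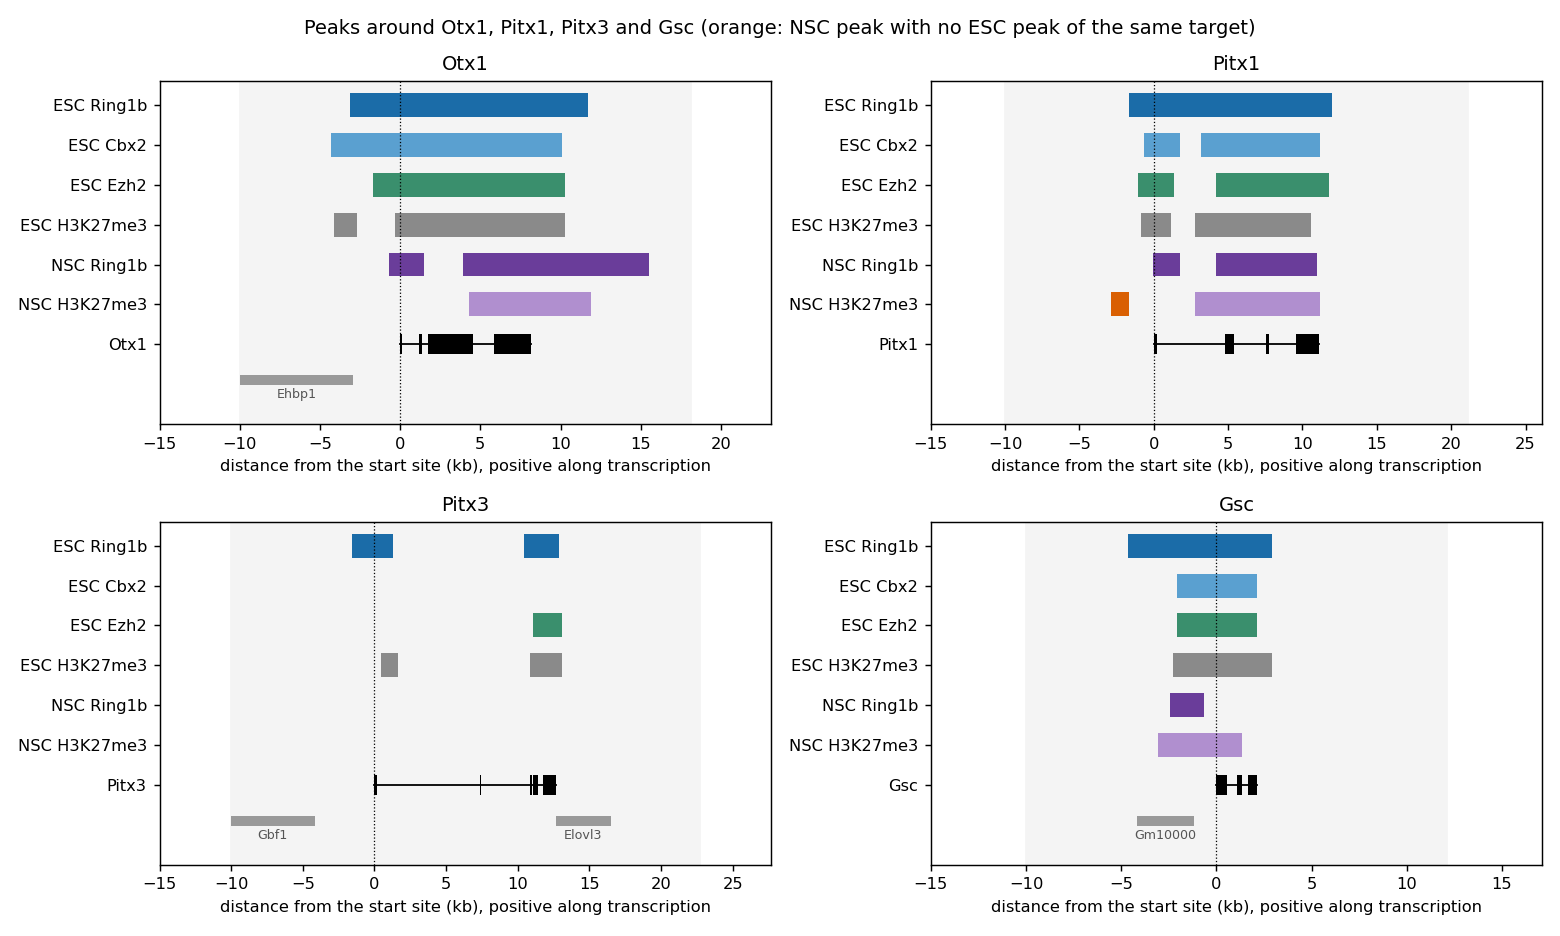
Peaks of the 6 lists around Otx1, Pitx1, Pitx3 and Gsc, drawn to scale by distance from the start site in kb, positive along transcription, with exons in black, neighbouring genes in grey and the window shaded. The single orange peak is the NSC H3K27me3 peak of Pitx1 absent in ESCs, and the NSC rows of Pitx3 are empty.

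Set beside each other, the 5 genes changed cover in different ways between ESCs and NSCs. The ratio of NSC to ESC Ring1b cover was 1.66 at Otx2, 0.932 at Otx1, 0.632 at Pitx1, 0.237 at Gsc and 0.0 at Pitx3. For H3K27me3 the order was Otx2 at 8.14, Pitx1 at 0.980, Gsc at 0.846, Otx1 at 0.633 and Pitx3 at 0.0. Otx2 was thus highest and Pitx3 lowest for both targets, while Gsc, Otx1 and Pitx1 changed places. Without replicates, none of these ratios has an error, so no place in these orders can be told apart from spread between libraries.

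The median ratio of the 5 genes was 0.632 for Ring1b and 0.846 for H3K27me3, and the median over all genes with an ESC peak in the window was 0.0 for each. Covered bases at least 2-fold higher in NSCs were found at 0 of 5 genes for Ring1b, against 1.32% of genes with an ESC peak in the window. For H3K27me3 they were found at 1 of 5, Otx2, against 4.62%. An NSC Ring1b peak absent in ESCs was present at 1 of 5 genes, Otx2, against 2.53% of all protein-coding genes. An NSC H3K27me3 peak absent in ESCs was present at 2 of 5, Otx2 and Pitx1, against 2.58%. As Otx2 was picked for this property, nothing is read from these counts.

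The 5 windows held 8 NSC Ring1b peaks, 2 of them absent in ESCs, and 8 NSC H3K27me3 peaks, 4 of them absent. For comparison, the NSC Ring1b list had 890 such peaks out of 1389 and the H3K27me3 list 1063 out of 1647. All but 1 of those in the 5 windows lay around Otx2.

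**Figure D4:**
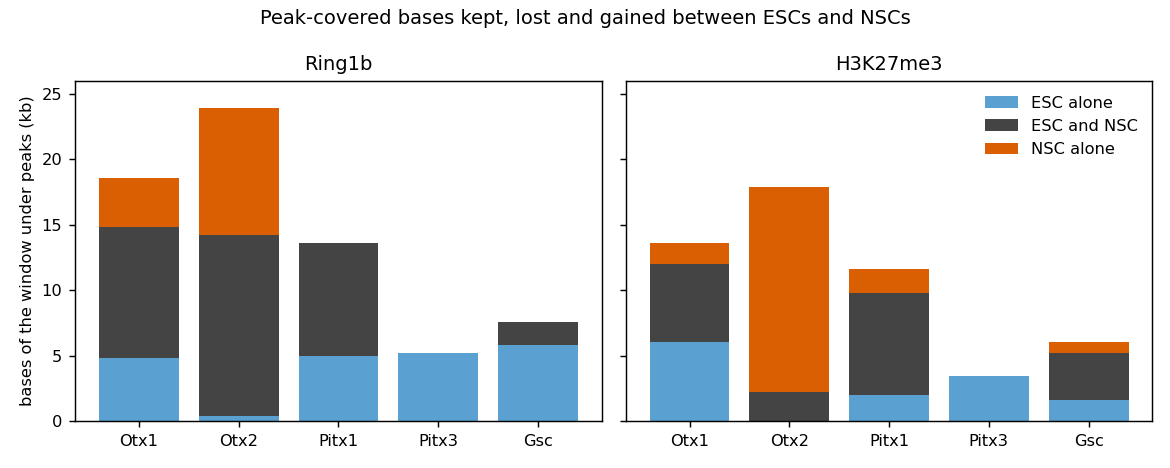
Bases of each window under peaks, in kb, for Ring1b on the left and H3K27me3 on the right, stacked as covered in ESCs alone, in both cell types and in NSCs alone. Otx2 has the tallest NSC-alone bars, 9719 bp for Ring1b and 15719 bp for H3K27me3, and the Pitx3 bars hold ESC-alone bases only.

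In all 5 windows, bases covered in ESCs had higher CpG ratios than bases covered in neither cell type, for Ring1b and for H3K27me3. CpG ratios of bases under Ring1b in both cell types were 0.660 at Otx1, 0.617 at Pitx1, 0.599 at Gsc and 0.537 at Otx2, and bases under Ring1b in neither cell type had ratios of 0.186 to 0.259. Bases covered in NSCs alone differed between the 2 Otx genes. At Otx1 they had a ratio of 0.171 for Ring1b and 0.191 for H3K27me3, below the uncovered bases of its window. At Otx2 they had 0.393 for Ring1b and 0.528 for H3K27me3, above the uncovered bases. For H3K27me3, NSC-alone bases had 0.443 at Pitx1 and 0.507 at Gsc, also above the uncovered bases there. Bases that lost Ring1b had a ratio of 0.308 at Pitx1 but 0.695 at Gsc and 0.582 at Pitx3, so a high CpG ratio was found in kept and in lost stretches.

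**Figure D5:**
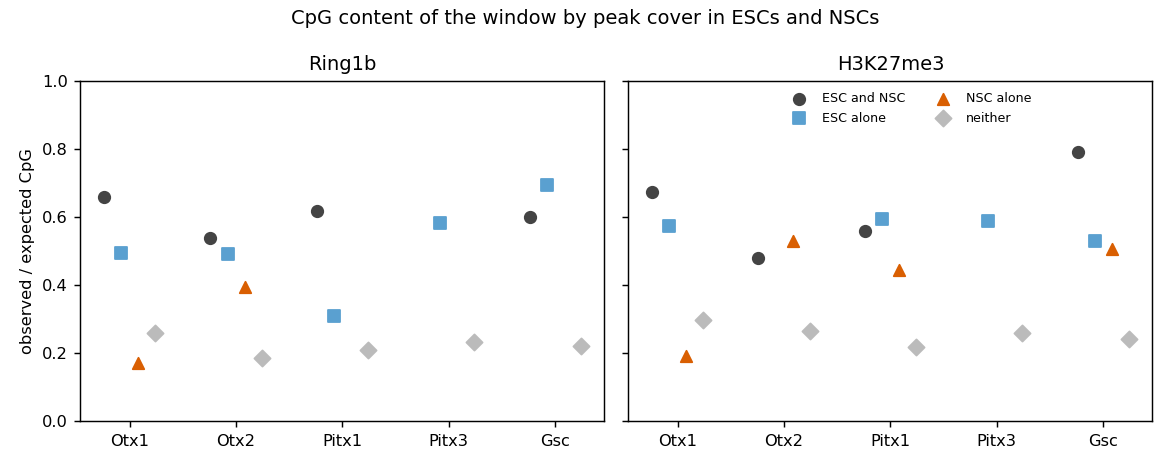
Observed to expected CpG ratio of the window's bases, split by whether Ring1b (left) or H3K27me3 (right) peaks covered them in both cell types, in ESCs alone, in NSCs alone or in neither. Grey diamonds, the uncovered bases, lie between 0.186 and 0.298. The orange triangles of Otx2, Pitx1 and Gsc lie above and those of Otx1 below the diamond of their own gene.

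3 relatives with the same homeodomain lysine were described the same way: Crx, the photoreceptor factor, Gsc2, the nearest relative of Gsc, and Dmbx1. Crx had no peak of any list in its window. Gsc2 had its start site in an ESC Ring1b peak and in H3K27me3 peaks of both cell types, with 2400 bp of ESC Ring1b cover and none in NSCs, and its H3K27me3 cover was 2400 bp in ESCs and 1400 bp in NSCs. Like Gsc, it thus had the mark and no Ring1b peak at its start site in NSCs, but it had no ESC Cbx2 or Ezh2 peak, which Gsc had. Dmbx1 had its start site in all 6 lists, which none of Otx1, Otx2, Pitx1, Pitx3 and Gsc had. Its Ring1b cover was 9200 bp in ESCs and 5000 bp in NSCs, and its H3K27me3 cover 5000 and 6800 bp. None of the 3 had an NSC peak absent in ESCs, which 2.53% of all protein-coding genes had for Ring1b and 2.58% for H3K27me3.

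Among 16 genes known to act with Otx2 or Gsc in the head organizer, the midbrain and its boundary with the hindbrain, start sites lay in an ESC Ring1b peak for 13, ESC Cbx2 for 8, ESC Ezh2 for 10 and ESC H3K27me3 for 8. The shares over all protein-coding genes were 7.03%, 1.15%, 2.56% and 4.31%. In NSCs the counts were 4 for Ring1b and 6 for H3K27me3, against 1.74% and 1.77% of all genes. Of all genes with their start site in an ESC Ring1b peak, a group that holds 13 of the 16, the shares were 16.7% and 19.8%. Hesx1, Dkk1 and Cer1, a homeobox gene and the genes of 2 secreted inhibitors, had no peak in any list. Gbx2, which opposes Otx2 at the midbrain-hindbrain boundary, had 3600 bp of ESC Ring1b cover and no peak in NSCs, unlike Otx2. Such loss was common: 6 of the 13 with an ESC Ring1b peak in the window, Gbx2, En1, Fgf8, Lmx1a, Lhx1 and Nr4a2, kept none in NSCs. Over all genes with such a peak the share was 79.5%. An NSC Ring1b peak absent in ESCs was found at 0 of the 16, against 2.53% of all protein-coding genes. An NSC H3K27me3 peak absent in ESCs was found at 4, Pax2, Pax5, Lmx1a and Lhx1, against 2.58%. Foxa2, a factor of the organizer and the floor plate, was the only one of the 16 with H3K27me3 cover at least 2-fold higher in NSCs, 3800 bp against 9200 bp. That was 1 of 13 with an ESC H3K27me3 peak in the window, against 4.62% of all such genes.

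The genes whose cover was most like that of each of the 5 were found by Euclidean distance over the 6 covered shares of the window, in percentage points, among protein-coding genes with a window apart from that gene. For Otx2 they were Shox2 at 24.2, Neurog2 at 24.2 and Foxd1 at 24.6. Shox2 had 39.3% of its window under ESC Ring1b and 67.9% under NSC Ring1b, and 14.6% and 55.3% under H3K27me3. For Otx1 they were Barhl2 at 23.3, Six3 at 26.3 and Barx1 at 27.1. Both Otx genes were thus far from their nearest match, and for Otx1 each of the 3 matches had more H3K27me3 cover in NSCs than Otx1 did. The distances were not scaled to the amount of cover, which differed between the genes. As the matches were chosen on these same shares, their likeness in cover follows from the choice.

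The other 3 genes had closer matches. For Pitx1 they were Tlx1 at 11.7, Nkx6-1 at 12.2 and Nr2e1 at 12.4, and for Gsc they were Mthfsd at 3.68, Shh at 11.0 and Dbx1 at 11.4. Shh, a ligand made in the midline, had no NSC Ring1b cover and 17.8% H3K27me3 cover. For Pitx3 they were Chst2 at 0.891, Drd4 at 1.86 and Tmem200b at 2.34. All 3 had no cover by ESC Cbx2 or either NSC list, as Pitx3 itself had none there and was matched on these shares.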

How the data were processed

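Paired-end tags were aligned by the authors to build mm9. The study's methods name Bowtie and the submitters' processing notes name BWA, and which made these lists was not settled. The authors compared ChIP with input in windows moved in 200 bp steps with a negative binomial model, set its size parameter by inspection and merged nearby enriched windows. Labels give 1% formaldehyde for 10 min and fragments of 250 bp, and the methods add EGS before formaldehyde for Ring1b. Each deposited list gives, per peak, a chromosome and 2 positions in bases, without counts, heights or p-values, so depth is unknown.

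Starts were read as 0-based, and all lie on a 200 bp grid. Genes came from the GENCODE vM1 annotation of NCBIM37, which is mm9: 22350 protein-coding genes on the 20 chromosomes with peaks. Peaks overlapped from 1 bp, and an NSC peak sharing no base with an ESC peak of its target was absent in ESCs. Inputs have no file used here. Python 3.11.15 and numpy 2.4.6 were used, and the overlap code was tested on simulated data.

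The genes and gene lists were chosen with earlier results of these data known. Named were the 5 genes, 3 relatives (another on the list is not reported here), 16 partners, genes in the windows and the 3 nearest genes by cover. Promoter tables on another build were not used.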

Additional observations from a re-analysis of the deposited data

How the results depend on the processing

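Of 226 values recomputed under other settings, 159 stayed within 1.5 times and 67 did not. The cause was not tested beyond what each setting's construction gives. Starts within 1 kb of a peak, an overlap covering 50% or more of the narrower peak and ESC peaks of any of the 4 lists moved none by more. Starts within 1 kb still added Gsc for NSC Ring1b, giving 4 of the 5 genes, and gave 4 for ESC Ezh2 and 4 for ESC H3K27me3. Counting any transcript start gave 5 of the 5 genes for ESC Ezh2 and 5 for ESC H3K27me3. Keeping peaks of at least 2 kb left 365 protein-coding genes with the start site in ESC Ezh2, 570 in ESC H3K27me3 and 202 in NSC Ring1b, 113 with an NSC Ring1b peak and 262 with an NSC H3K27me3 peak absent in ESCs, 2 of the 5 genes with no ESC Ring1b peak kept, and 1 with an NSC H3K27me3 peak absent in ESCs. It also left the Otx2 window with 0.0% ESC H3K27me3 cover. With flanks of 5 kb the median covered share was 34.7% for ESC Ezh2, 42.9% for ESC H3K27me3 and 41.9% for NSC H3K27me3, and 1 NSC Ring1b peak was absent in ESCs. With flanks of 20 kb the medians were 26.6% for ESC Ring1b, 20.3% for Cbx2, 9.97% for Ezh2, 12.3% for H3K27me3, 16.8% for NSC Ring1b and 15.8% for NSC H3K27me3, as few peaks lie in the added bases. Counting an ESC peak within 1 kb as present left 1 NSC Ring1b peak absent in ESCs, and 1 gene with such an H3K27me3 peak. Merging peaks within 3 kb left 0 NSC Ring1b peaks at 0 genes and 1 NSC H3K27me3 peak at 1 gene, Pitx1, since the flanking peaks of Otx2 join its central domain.

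No paired analysis was possible because there was 1 library per cell type and target. Leaving out a replicate was likewise not done. The lists set the limits: without depth, height or score, no interval can be given and the authors' threshold was not varied.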
